A study of Mus musculus with 6 samples.

Results

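The genes described here are those of sphingolipid metabolism and of signalling by sphingosine 1-phosphate (S1P), measured by RNA-seq in RAW264.7 cells, a mouse macrophage cell line. They were chosen by name and function as a list of 44 genes. All 44 were found among the 49315 genes of the count table through the GENCODE M21 name or a synonym of the Ensembl identifier. The cells were wild type by their label. One group of 3 libraries came from cells given 4 μg/mL SKI-II for 24 h, and the control group of 3 libraries from cells given the same volume of DMSO, the solvent, for the same time. SKI-II is known as an inhibitor of sphingosine kinases and is also known to act on dihydroceramide desaturase, so 3 of the genes encode proteins that the compound is known to act on, namely Sphk1, Sphk2 and Degs1. The question here was how the mRNAs of the pathway around these proteins stood in treated and control cells. No sequencing library came from infected cells, and no lipid was measured in these libraries.

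Sphingolipids are built at the endoplasmic reticulum, where serine palmitoyltransferase joins serine to a fatty acyl chain and later enzymes turn the product into ceramide. Ceramide is then passed on in the Golgi to sphingomyelin or to glycolipids, or is split to sphingosine, which sphingosine kinases phosphorylate to S1P, a signalling lipid read by receptors at the cell surface. Lysosomes take complex sphingolipids apart again with acid hydrolases and small activator proteins, a route that is busy in macrophages because they engulf membranes.

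The libraries held between 12495957 and 20050677 counts. Values below are normalized counts, meaning counts divided by the library's effective size (its total scaled by the TMM factor) and multiplied by the mean effective size of 16042438. Of the 10 macrophage markers checked, 10 were detected, at summed levels of 142255 to 207289 normalized counts in DMSO, against 91049 to 129061 in SKI-II. Of these markers, 2 rose and 4 fell. Lyz2, a lysozyme gene, had 88328 to 150574 normalized counts in DMSO and 23620 to 61283 with SKI-II. A sum taken without Lyz2, after its values were seen, was 51704 to 56715 in DMSO and 62645 to 67778 with SKI-II. In that sum Cd14 and Fcgr1 rose, from means of 7668 to 20424 and of 909 to 4106, while Adgre1, Itgam and Mrc1 fell. The 12 markers of other cell types had 11.4 to 20.8 normalized counts in all in DMSO, against 20.04 to 38.0 in SKI-II, and 5 of the 12 had no count in any library. Mitochondrially encoded genes took 1.07 to 1.25% of the counts in DMSO, against 1.38 to 1.71% in SKI-II. The part of these shifts in the results below was not tested. In such bulk RNA, fewer cells and less RNA per cell cannot be told apart, and nothing in the labels says that the 3 libraries of a group came from separate cultures, so the p-values measure the spread between these libraries only.

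Genes were tested with edgeR's quasi-likelihood F test, and a gene was called at a Benjamini-Hochberg adjusted p below 0.05 over the 12274 genes with enough counts. Of the 44 sphingolipid genes, 38 could be tested, and 8 were called higher and 8 lower with SKI-II. These are 21.1% of the tested members in each direction, beside 18.4% higher and 19.7% lower among all tested genes. The members called higher were Sptlc1, Cers2, Cers5, Acer3, Sphk2, Aldh3a2, S1pr1 and Sgms1. The members called lower were Sptssa, Cers4, Smpd4, St3gal5, Galc, Hexa, Psap and Gm2a. More than 2-fold changes were called in 3 members that rose and 4 that fell, which are 7.89% and 10.5% of the tested members beside 8.28% and 7.44% of all tested genes. All 3 SKI-II libraries exceeded all 3 DMSO libraries in 11 members, and all 3 were lower in 9, 28.9% and 23.7% beside 24.8% and 25.5% of all tested genes. The median log2 fold change of the tested members was 0.02, with 21 above 0 and 17 below, and that of all tested genes was 0.00. The shares of the whole list thus stood near those of all genes, and the account that follows goes by single genes and pathway steps.

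**Figure D1:**
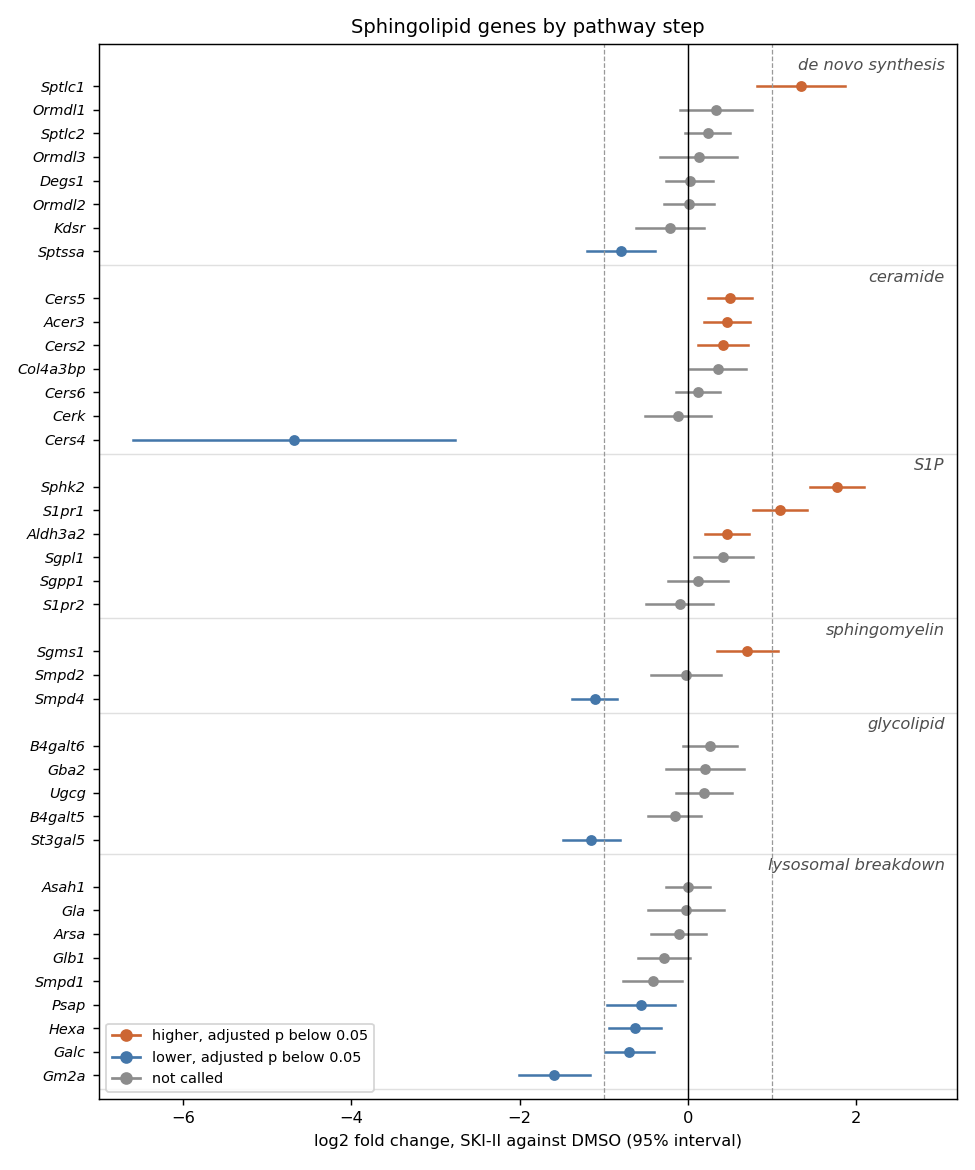
Log2 fold change of the 38 tested sphingolipid genes, SKI-II against DMSO (horizontal axis), grouped by pathway step, with points for the edgeR estimate and lines for its 95% interval. Dashed lines mark a 2-fold change in either direction. Sphk2, Sptlc1 and S1pr1 lie past the right line, Cers4, Gm2a, St3gal5 and Smpd4 lie past the left line, and 8 of the 9 lysosomal genes lie left of 0.

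Sphingosine kinases make S1P, and the 2 kinase genes stood far apart in these cells. Sphk1 had 0 counts in each of the 6 libraries, which allows up to 3 counts in a library and covers counting error only. The gene lies at chr11:116530925-116536674 on the plus strand (GRCm38, GENCODE M21). Its antisense neighbour Gm29292, which shares 192 bases of exon with it, also had 0 counts throughout, while the adjoining gene Ube2o had 1109.8 ± 159 (SD, n = 3) normalized counts in DMSO, against 1316 ± 283 in SKI-II. How the annotation used for counting, or its handling of overlapping genes, bears on these 0 counts was not tested. The kinase counts in the table were all assigned to Sphk2, the kinase found largely in the nucleus and in mitochondria.

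Among the tested members, Sphk2 rose most. It had 1018, 1023 and 968 normalized counts in the control libraries, against 4115, 3012 and 3112 after SKI-II. The 3 DMSO values were close together, and the lowest SKI-II library was far above them. The means were 1003 ± 30.3 and 3413 ± 610.1 (SD, n = 3), a log2 fold change of 1.77 with a standard error of 0.14 and an adjusted p of 2.33e-05 by edgeR's quasi-likelihood test. In CPM (library-scaled counts) per kilobase of exon, its level went from 15.0 to 51.2, from place 16 to place 5 among the 44 genes. Sphk2 lies at chr7:45709467-45718002 on the minus strand and shares 539 bases of exon with Dbp, a clock-controlled transcription factor gene, and 373 bases with Rpl18, a ribosomal protein gene, both on the plus strand. The kit named in the labels is not a directional one by its name, and the strand setting used in counting is not known here, so how reads in those bases were assigned is not known either. Dbp fell from 208 ± 107 to 31.0 ± 11.6 normalized counts (log2 fold change -2.72, edgeR adjusted p = 0.000783), and Rpl18 had 14693 ± 3136 and 13886 ± 3125 (log2 fold change -0.08, edgeR adjusted p = 0.787).

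The promoters of Sphk2 and Sptlc1, the tested member that rose next most, and of St3gal5, a member that fell, are printed as the stretch from 250 bases before to 50 bases after the annotated start. They are RefSeq sequences of GRCm38.p6, read 5′ to 3′ on the gene's strand, and are shown as examples of genes that changed more than 2-fold in opposite directions. Sphk2 has 2 annotated starts. Capitals mark CCAAT boxes, with the letters CCAAT or, on the other strand, ATTGG. Gm2a, Cers4 and Smpd4 also fell more than 2-fold, and their promoters, which are not printed, held no CCAAT box.
Sphk2, chr7:45715158-45715457, minus strand: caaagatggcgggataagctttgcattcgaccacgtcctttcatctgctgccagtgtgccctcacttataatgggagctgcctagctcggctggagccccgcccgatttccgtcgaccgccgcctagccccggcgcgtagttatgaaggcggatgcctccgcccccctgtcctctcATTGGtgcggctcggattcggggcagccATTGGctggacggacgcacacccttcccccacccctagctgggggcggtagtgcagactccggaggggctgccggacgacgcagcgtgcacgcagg
Sphk2, chr7:45717953-45718252, minus strand: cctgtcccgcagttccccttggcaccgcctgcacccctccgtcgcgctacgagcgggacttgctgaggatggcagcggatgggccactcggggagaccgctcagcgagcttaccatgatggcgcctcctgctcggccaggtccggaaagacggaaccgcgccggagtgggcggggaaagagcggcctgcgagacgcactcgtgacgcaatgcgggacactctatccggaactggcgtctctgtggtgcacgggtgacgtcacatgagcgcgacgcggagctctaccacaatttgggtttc
Sptlc1, chr13:53377312-53377611, minus strand: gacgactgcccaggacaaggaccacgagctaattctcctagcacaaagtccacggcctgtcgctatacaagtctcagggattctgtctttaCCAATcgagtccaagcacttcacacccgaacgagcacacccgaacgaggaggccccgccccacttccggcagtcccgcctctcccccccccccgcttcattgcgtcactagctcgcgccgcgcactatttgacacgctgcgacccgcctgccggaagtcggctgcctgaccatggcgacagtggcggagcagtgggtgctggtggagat
St3gal5, chr6:72097358-72097657, plus strand: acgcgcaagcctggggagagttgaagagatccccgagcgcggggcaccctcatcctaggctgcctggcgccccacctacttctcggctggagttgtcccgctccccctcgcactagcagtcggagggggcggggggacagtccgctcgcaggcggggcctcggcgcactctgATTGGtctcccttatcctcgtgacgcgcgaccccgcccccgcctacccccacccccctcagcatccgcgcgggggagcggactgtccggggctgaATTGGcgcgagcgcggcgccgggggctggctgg

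The CCAAT box was present in 5 of the 7 members called higher that have a promoter in the table (Aldh3a2, Cers2, Sgms1, Sphk2 and Sptlc1), in 3 of the 8 called lower (Hexa, Sptssa and St3gal5) and in 8 of the 20 not called. Counted in the same way, by gene, it was in 43.2% of the 9305 tested genes with a promoter, and by promoter in 37.4% of all 32851. Of the 38 tested members 35 have a promoter there. The other motifs were also searched on both strands, and none of them contains another. The antioxidant response element core TGACNNNGC, known as a site of Nrf2, was in 0 of the 7 members called higher and in 3 of the 8 called lower (Galc, Hexa and Psap) and 1 of the 20 not called, beside 17.0% of tested genes and 12.4% of all promoters. The E-box CACGTG, read by the MiT/TFE and USF factors among others, was in 2 of the 7 called higher (Aldh3a2 and Cers2) and 0 of the 8 called lower. It was also in 6 of the 20 members not called, beside 11.99% of tested genes and 7.15% of all promoters. The C/EBP-ATF response element TGATGNAA was in 0 of the 7, 0 of the 8 and 1 of the 20 not called, beside 2.83% of tested genes and 3.97% of all promoters. These matches describe letters in a window of 300 bases and are not binding measurements.

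**Figure D2:**
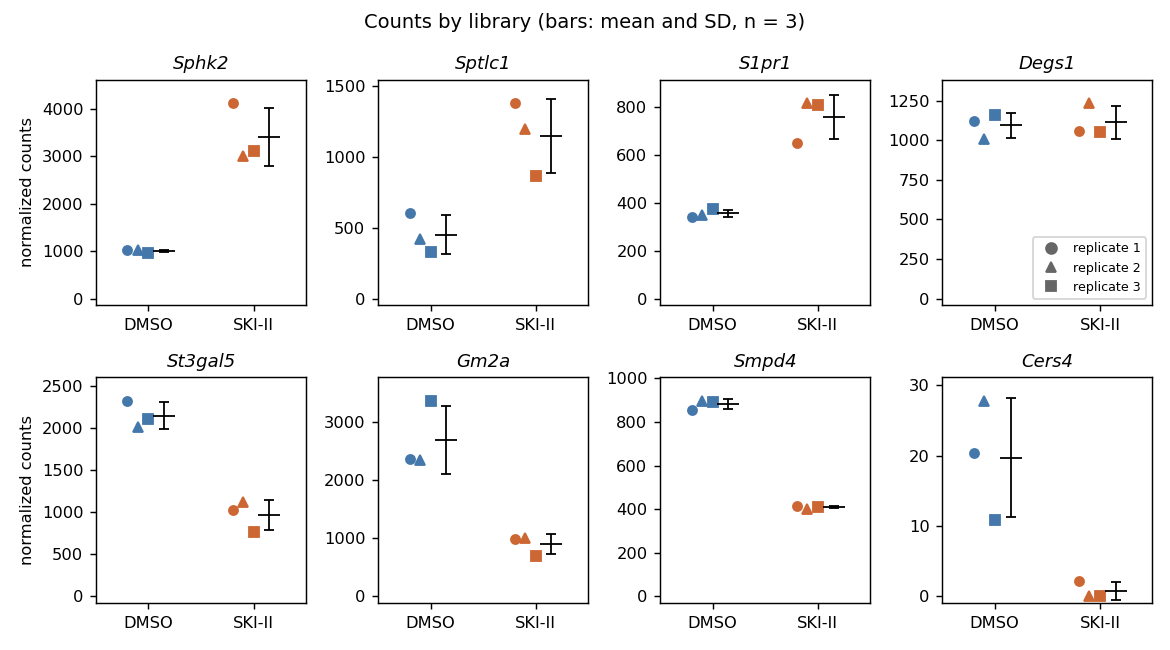
Normalized counts (vertical axis, linear from 0) in each of the 6 libraries for 8 sphingolipid genes, with a marker per replicate number and a horizontal tick and bar for the mean and SD (n = 3). Sphk2, Sptlc1 and S1pr1 have every SKI-II library above every DMSO library, St3gal5, Gm2a, Smpd4 and Cers4 have every one below, and in Degs1 the groups overlap.

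Receptors and exporters carry S1P out of the cell and read it at the surface. S1pr1, the receptor that guides lymphocyte exit from lymphoid tissue and is also found on macrophages, had 342, 350.0 and 373 normalized counts in DMSO, against 650.1, 815 and 807 in SKI-II. The groups did not overlap. The log2 fold change was 1.09 with a standard error of 0.14 (edgeR adjusted p = 0.00032). S1pr2, the other S1P receptor tested, had 630.4 ± 79.1 normalized counts in DMSO, against 589 ± 132 in SKI-II and was not called (log2 fold change -0.10, 95% interval -0.50 to 0.30, edgeR adjusted p = 0.69). Per exon length, S1pr1 held 60.9, 60.6 and 57.5% of the summed level of these receptors in DMSO, against 69.7, 81.2 and 79.8% in SKI-II. Every SKI-II share was above every DMSO share, with a difference of 17.2 percentage points and a two-sided exact permutation p of 0.1, the smallest that 3 against 3 libraries can give. The other receptor genes S1pr3, S1pr4 and S1pr5 had too few counts to test.

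Spns2, the S1P exporter, was near the limit of detection and was not tested. It had 0, 0 and 1 counts in DMSO, against 7, 7 and 3 in SKI-II. Summed over libraries and scaled by library size, the SKI-II counts were 15.2 times those of DMSO with an exact 95% interval of 2.38 to 635, which covers counting error only. With no filter on low counts its edgeR adjusted p was 0.0271, and with DESeq2 it was 0.0651.

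The enzymes that remove S1P stood as follows. Aldh3a2, the fatty aldehyde dehydrogenase that clears the aldehyde made by S1P lyase, rose from 764 ± 52.9 to 1053 ± 29.8 normalized counts (log2 fold change 0.46, edgeR adjusted p = 0.0117). The call was lost without DMSO replicate 2 (adjusted p = 0.0543). Sgpl1, the S1P lyase, had 4020.0 ± 492 and 5379 ± 949 normalized counts with no overlap between groups, and its edgeR adjusted p of 0.0578 missed the threshold (log2 fold change 0.42). It was called in 7 of 13 alternative analyses, DESeq2 among them (adjusted p = 0.0452). Sgpp1, an S1P phosphatase, had 889.8 ± 123 and 964 ± 155 normalized counts (log2 fold change 0.12, 95% interval -0.24 to 0.47). Its paralogue Sgpp2 had 4, 0 and 0 counts in DMSO, against 2, 3 and 1 in SKI-II and was not tested. In the S1P step, 3 of the 6 tested genes rose and 0 fell, beside 18.4% and 19.7% of all tested genes, and the median log2 fold change was 0.44 beside 0.00.

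Serine palmitoyltransferase is the entry point of the pathway, and a core subunit and the small subunit were called in opposite directions. Sptlc1, a core subunit of the enzyme, had 605, 423 and 331 normalized counts in DMSO, against 1382, 1199 and 869 in SKI-II. The lowest SKI-II library was above the highest DMSO library, and both groups were spread widely. The log2 fold change was 1.34 with a standard error of 0.24 (edgeR adjusted p = 0.00176). Sptssa, the small subunit that raises the activity of the enzyme, had 1361, 1372 and 1715 normalized counts in DMSO, against 636, 950.4 and 975 in SKI-II, again without overlap (log2 fold change -0.80, standard error 0.18, edgeR adjusted p = 0.00652). Sptlc2, the other core subunit, had 1045 ± 84.7 and 1227 ± 30.9 normalized counts (log2 fold change 0.23, 95% interval -0.03 to 0.49, edgeR adjusted p = 0.148). In CPM per kilobase of exon, Sptlc1 had a level of 7.94 and Sptlc2 of 8.03 in DMSO, and 20.2 and 9.42 in SKI-II, while Sptssa went from 60.9 to 35.1.

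Degs1, the desaturase that makes ceramide from dihydroceramide, had 1124, 1007 and 1157 normalized counts in DMSO, against 1057, 1234 and 1050.2 in SKI-II. The groups overlapped. The log2 fold change was 0.02 with a 95% interval of -0.26 to 0.30 (edgeR adjusted p = 0.903), and its sign turned without DMSO replicate 2 (-0.04) or SKI-II replicate 2 (-0.05). Kdsr, the reductase between serine palmitoyltransferase and the ceramide synthases, had 294 ± 48.9 and 254 ± 33.4 normalized counts (log2 fold change -0.21, edgeR adjusted p = 0.39).

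The ORMDL proteins restrain serine palmitoyltransferase when ceramide is plentiful. None of their 3 genes was called by edgeR. Ormdl1 had 137 ± 10.9 and 172 ± 21.6 normalized counts (log2 fold change 0.33, adjusted p = 0.202), Ormdl2 456 ± 35.4 and 461 ± 23.2 (0.01, adjusted p = 0.949) and Ormdl3 429 ± 116 and 469 ± 62.9 (0.13, adjusted p = 0.659). Ormdl2 shares 1114 of its 1670 exon bases with Dnajc14 on the opposite strand, which rose from 1159.8 ± 54.0 to 1619.9 ± 101 normalized counts (log2 fold change 0.48, adjusted p = 0.00851). Ormdl2 held 55.2% of their summed level per exon length in DMSO, against 52.4% in SKI-II (two-sided exact permutation p = 0.5), and the difference of -2.76 percentage points was -0.046 without DMSO replicate 1, -0.90 without SKI-II replicate 3, and -4.70 and -4.29 without DMSO replicate 3 and SKI-II replicate 2. In de novo synthesis as a whole 1 of 8 genes rose and 1 fell, 12.5% each way and below the 18.4% and 19.7% of all tested genes, with a median log2 fold change of 0.08.

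Ceramide synthases attach the fatty acyl chain, and each prefers certain chain lengths. Cers2, which uses very long chains and was the synthase with the highest level per exon length, had 4186, 4158 and 4534 normalized counts in DMSO, against 5509.6, 6594 and 5087 in SKI-II. The groups did not overlap (log2 fold change 0.42, standard error 0.13, edgeR adjusted p = 0.0324), but the call was lost without DMSO replicate 1 or 2 or without SKI-II replicate 1 or 2, with adjusted p from 0.0514 to 0.143. Cers5, which prefers palmitoyl chains, rose from 1091 ± 12.1 to 1540.1 ± 136 normalized counts (log2 fold change 0.50, edgeR adjusted p = 0.00831). Cers6, of like preference, had 1642 ± 113 and 1780.4 ± 142 (log2 fold change 0.12, edgeR adjusted p = 0.474).

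Cers4 was the member with the lowest fitted log2 fold change, and it rests on few reads. It had 21, 22 and 11 counts in DMSO, against 2, 0 and 0 in SKI-II. Summed and scaled by library size, the SKI-II counts were 0.0331 of those of DMSO with an exact 95% interval of 0.00391 to 0.1254 that covers counting error only (edgeR adjusted p = 0.00224). The fitted log2 fold change was -4.68, and it was -7.33 without SKI-II replicate 1 and -4.07 without SKI-II replicate 3. At 0.0973% of the summed synthase level per exon length in DMSO, against 0.00282% in SKI-II, Cers4 was a trace among the 4 synthases. Cers2 held 70.2 ± 1.49% and 70.9 ± 1.67% of that level (SD, n = 3, two-sided exact permutation p = 0.5), Cers5 18.5 ± 0.460% and 19.9 ± 0.692% (p = 0.1) and Cers6 11.1 ± 1.05% and 9.20 ± 0.971% (p = 0.2).

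**Figure D3:**
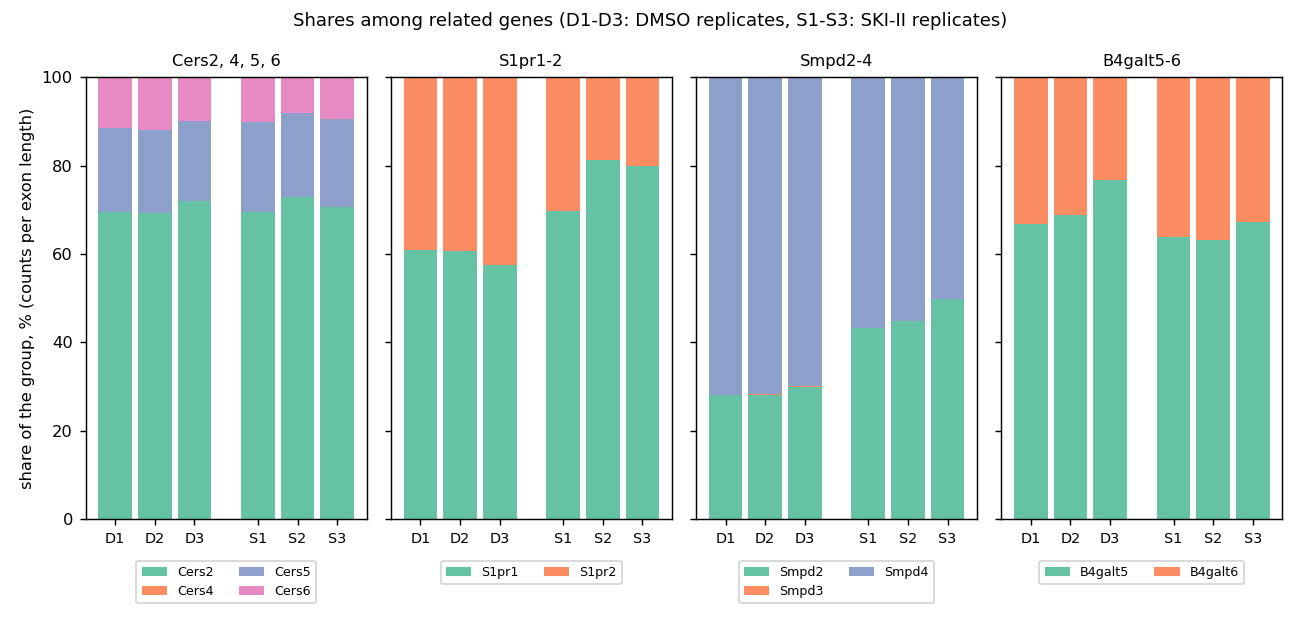
Share of each gene in the summed level of its group of related genes (vertical axis, %, counts divided by exon length), by library, for the ceramide synthases, S1P receptors, neutral sphingomyelinases and lactosylceramide synthases. S1pr1 rises from 57.5 to 60.9% in the DMSO libraries to 69.7 to 81.2% in the SKI-II libraries, Smpd4 goes from 69.9 to 72.0% to 50.2 to 56.8%, and the ceramide synthase shares are nearly level.

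Among the other ceramide genes, Acer3, an alkaline ceramidase, rose from 760.3 ± 16.6 to 1047 ± 90.5 normalized counts (log2 fold change 0.46, edgeR adjusted p = 0.0134). The call was lost without DMSO replicate 2 (adjusted p = 0.0586) or SKI-II replicate 2 (0.0503). Its relative Acer2 had 3, 0 and 5 counts in DMSO, against 8, 2 and 2 in SKI-II and was not tested. Col4a3bp, which encodes the ceramide transfer protein CERT, had 832 ± 87.2 and 1066 ± 168 normalized counts (log2 fold change 0.36, edgeR adjusted p = 0.0887). Cerk, the ceramide kinase, had 2612 ± 593 and 2400.1 ± 364 (log2 fold change -0.12, edgeR adjusted p = 0.618). In this step 3 of 7 tested genes rose and 1 fell, beside 18.4% and 19.7% of all tested genes, with a median log2 fold change of 0.36.

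Sphingomyelin is made in the Golgi by Sgms1 and cut back to ceramide by sphingomyelinases. Of the 3 genes tested in this step, 1 rose and 1 fell, beside 18.4% and 19.7% of all tested genes. Sgms1 rose from 697 ± 126 to 1135 ± 152 normalized counts (log2 fold change 0.70, standard error 0.16, edgeR adjusted p = 0.0075). Sgms2, the synthase of the plasma membrane, had 1 count in all 6 libraries together. Smpd4, a neutral sphingomyelinase of the endoplasmic reticulum and nuclear envelope, had 857, 897 and 894 normalized counts in DMSO, against 414, 403 and 411 in SKI-II. Both groups were tight and far apart (log2 fold change -1.11, standard error 0.12, edgeR adjusted p = 0.000102). Smpd2, another neutral sphingomyelinase, had 176 ± 12.1 and 173 ± 24.7 (log2 fold change -0.02, 95% interval -0.44 to 0.39, edgeR adjusted p = 0.933). Smpd3, the third, had 0, 1 and 2 counts in DMSO and 0 in each SKI-II library. The Smpd4 share of the 3 enzymes fell by 17.1 percentage points from 71.2%, with no overlap between groups and the smallest p that the exact permutation test can give, 0.1. Smpd2 shares 905 bases of exon with Mical1, on the opposite strand, which had 16.3 normalized counts in DMSO, against 10.8 in SKI-II.

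In glycolipid synthesis 1 of the 5 genes was called lower and 0 higher, beside 19.7% and 18.4% of all tested genes. St3gal5 encodes GM3 synthase, which puts sialic acid on lactosylceramide to make the first ganglioside. It had 2324, 2019 and 2108 normalized counts in DMSO, against 1025, 1118 and 769.9 in SKI-II, so every treated library was below every control library (log2 fold change -1.15, standard error 0.15, edgeR adjusted p = 0.000374). The genes ahead of it in the route were not called. Ugcg, glucosylceramide synthase, had 304 ± 21.8 and 347 ± 25.9 normalized counts (log2 fold change 0.19, edgeR adjusted p = 0.345). The lactosylceramide synthases B4galt5 and B4galt6 had log2 fold changes of -0.16 and 0.26 (edgeR adjusted p = 0.41 and 0.181), and B4galt5 held 70.8% of their summed level per exon length in DMSO, against 64.8% in SKI-II (two-sided exact permutation p = 0.2). That difference of -6.01 percentage points was -3.07 without DMSO replicate 3. Gba2, a glucosylceramidase outside the lysosome, had 233 ± 39.0 and 269 ± 57.0 normalized counts (log2 fold change 0.20, edgeR adjusted p = 0.478).

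Of the 9 lysosomal genes, 4 fell, 0 rose and 8 had a log2 fold change below 0, with a median of -0.42 beside 0.00 for all tested genes. In 5 of the 9 every SKI-II library was below every DMSO library, a pattern that 25.5% of all tested genes showed. Calls lower were made for 19.7% of all tested genes. Gm2a encodes the GM2 activator, which lifts ganglioside GM2 out of the membrane for hexosaminidase, and it had 2370.0, 2359 and 3373 normalized counts in DMSO, against 991, 1009.5 and 699.9 in SKI-II. The lowest DMSO library was above the highest SKI-II library by more than 2-fold. The log2 fold change was -1.59 with a standard error of 0.19 (edgeR adjusted p = 0.000201). Hexa, the alpha subunit of that hexosaminidase, had 5869.6, 6509.6 and 7856 normalized counts in DMSO, against 4438, 4129 and 4465 in SKI-II, again without overlap (log2 fold change -0.63, standard error 0.14, edgeR adjusted p = 0.00552).

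Galc, which removes galactose from galactosylceramide, fell from 849 ± 86.6 to 524 ± 21.1 normalized counts (log2 fold change -0.70, edgeR adjusted p = 0.00242). Psap encodes prosaposin, the precursor of the saposins that aid several of these hydrolases, and had 27418, 29733 and 37072 normalized counts in DMSO, against 25446, 19963 and 18699 in SKI-II. The groups came close to each other without overlap (log2 fold change -0.56, standard error 0.18, edgeR adjusted p = 0.0352). The Psap call was lost without DMSO replicate 2 or 3 or SKI-II replicate 2 or 3, with adjusted p from 0.0822 to 0.126. Smpd1, acid sphingomyelinase, had 669.6 ± 111 and 500.4 ± 45.4 normalized counts with no overlap and was not called (log2 fold change -0.42, edgeR adjusted p = 0.0552).

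The other lysosomal hydrolases were not called by edgeR. Glb1, beta-galactosidase, had a log2 fold change of -0.29 (adjusted p = 0.127), Arsa, arylsulfatase A, of -0.11 (adjusted p = 0.579) and Gla, alpha-galactosidase A, of -0.03 (adjusted p = 0.934). Asah1, the acid ceramidase that frees sphingosine, had 1485 ± 105 and 1486 ± 95.1 normalized counts, a log2 fold change of 0.00 with a 95% interval of -0.26 to 0.26. Arsa shares 690 bases of exon with the antisense gene C230037L18Rik, which rose from 7.01 to 23.7 normalized counts (edgeR adjusted p = 0.0143).

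**Figure D4:**
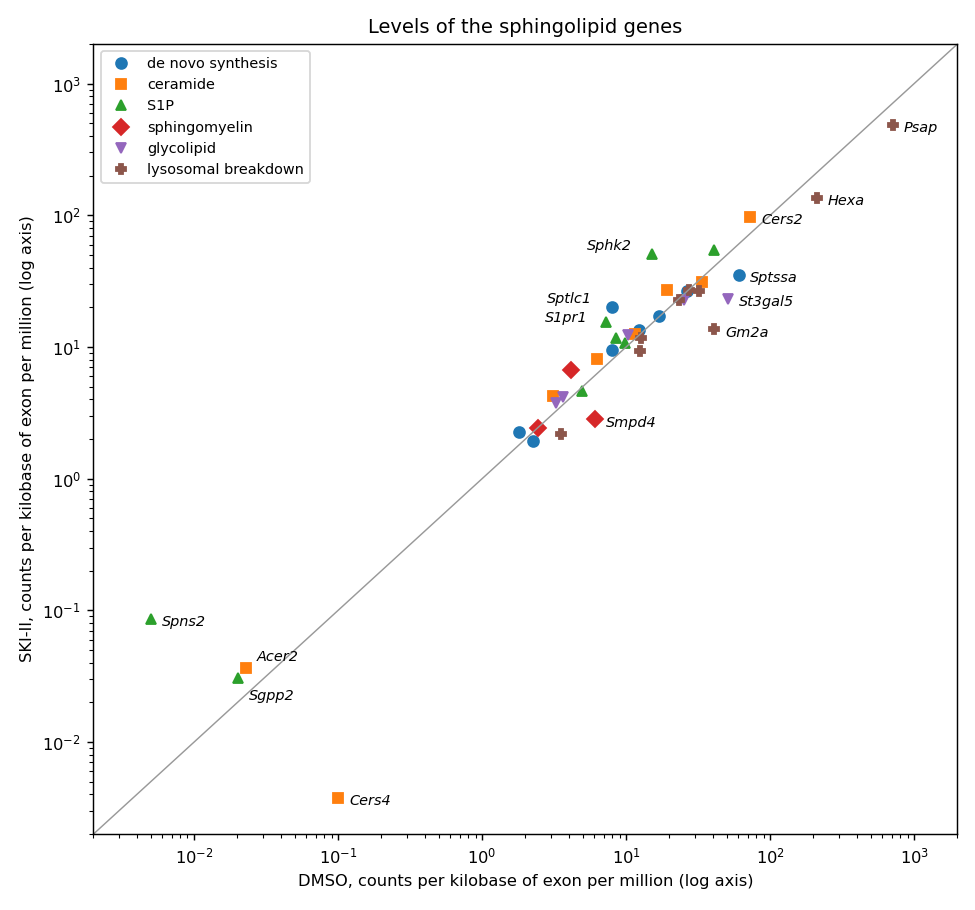
Level of each sphingolipid gene in DMSO (horizontal axis) and SKI-II (vertical axis), in CPM per kilobase of exon, both on log axes, with the diagonal marking equal levels and symbols for the pathway step. Genes with no count in a group are not drawn. Psap and Hexa have the highest levels in both groups, and Sphk2 lies above the diagonal while Gm2a and St3gal5 lie below it.

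Levels were compared between genes only in CPM per kilobase of exon. Psap had the highest level in both groups, 713 in DMSO, against 485 in SKI-II, followed by Hexa with 211 and 136 and Cers2 with 72.8 and 97.2. Below these, Sptssa went from place 4 to place 6, Gm2a from place 7 to place 18 and St3gal5 from place 5 to place 12. The summed normalized counts of the 44 genes, not divided by exon length, ranged from 73020 to 88504 in DMSO and from 63727 to 76672 in SKI-II, and the groups overlapped. Psap alone made up 27418 to 37072 of these in DMSO, against 18699 to 25446 in SKI-II, so the sum leans on that gene.

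A wider list of 56 further sphingolipid genes (paralogues, fatty acyl elongases, lipid carriers and lysosomal partners) was read beside the members. Of these, 55 were in the table and 37 could be tested, and 8 rose (21.6%) and 6 fell (16.2%), beside 18.4% and 19.7% of all tested genes. Cptp, the ceramide 1-phosphate transfer protein, had 192, 88.4 and 113 normalized counts in DMSO, against 806, 682 and 477 in SKI-II (log2 fold change 2.31, standard error 0.29, edgeR adjusted p = 0.000284).

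The sphingomyelinase-like phosphodiesterases moved apart. Smpdl3b, a membrane-anchored member of that family, had 853, 831 and 892 normalized counts in DMSO, against 219, 325 and 356 in SKI-II (log2 fold change -1.51, edgeR adjusted p = 0.000198). Smpdl3a, its secreted relative, had 542, 546 and 1014 in DMSO, against 1292, 1582 and 1528 in SKI-II (log2 fold change 1.07, edgeR adjusted p = 0.00547). Smpd5 rose from 15.0 ± 7.47 to 52.2 ± 6.92 (log2 fold change 1.77, edgeR adjusted p = 0.00552), at low counts and with 296 bases of exon shared with Oplah. Elovl5, an elongase of polyunsaturated fatty acyl chains, fell from 2782 ± 135 to 1209.8 ± 52.0 (log2 fold change -1.20, edgeR adjusted p = 4.42e-05). In each of these genes the groups did not overlap.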

How the data were processed

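Total RNA of RAW264.7 cells was enriched for poly(A) mRNA, made into libraries with a kit that is not directional by its name in the labels, and sequenced. The deposited file holds raw counts per Ensembl gene for the 6 libraries. Per the labels, the authors trimmed reads with Trimmomatic 0.36, aligned them with STAR 2.5.2b, counted them with featureCounts of Subread 1.5.2 and used DESeq2. Counting options, annotation release and genome build were each not given in the sources used here. Names, coordinates and union exon lengths come from GENCODE M21 (GRCm38), which names 49056 of the 49315 identifiers.

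SKI-II was compared with DMSO in edgeR 4.0.16 (R 4.3.3) with TMM scaling, filterByExpr (minimum count 10, minimum total 15), the quasi-likelihood F test on all 6 libraries without covariates and Benjamini-Hochberg adjustment over 12274 genes. These tested genes held at least 99.865% of each library's counts. Fold changes carry a prior count of 0.125, and standard errors are the absolute log2 fold change over the root of F. Shares among related genes were compared with two-sided exact permutation tests. The pipeline was tested on simulated data. Alternatives were DESeq2 1.42.0, limma-voom (limma 3.58.1), RLE scaling, library size alone, no filter, a minimum of 10 counts in all libraries, omission of each library in turn, and a replicate block.

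The members, the wider list, the markers and the motifs were chosen with earlier results of these data known. Named with values in every library were Sphk1, Sphk2 and Degs1, members called beyond a log2 fold change of 1 either way, and the largest change of each step. Of the wider list, up to 8 genes of that size were named, if their mean reached 10 normalized counts and their groups did not overlap. Some genes of the wider list that were tested and counted are not reported by name here. Values in every library are given for some further members too, chosen after their values were seen.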

Additional observations from a re-analysis of the deposited data

How the results depend on the processing

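Of 493 comparisons of a tested member with its value under an alternative, 450 kept direction and side of the threshold, 11 lost the call, 12 gained it and 20 changed sign. The 7 members past 2-fold kept their calls wherever they were tested. Cers4 could not be tested with at least 10 counts in every library, which left 3 members more than 2-fold lower. Leaving out a library gave 5 to 10 members called higher, with 5 without DMSO replicate 2. The sign changes were in uncalled genes near 0. Asah1 was at -0.000207 with limma-voom. When a library was left out, log2 fold changes ranged from -0.056 to 0.055 for Asah1, -0.055 to 0.062 for Degs1, -0.041 to 0.074 for Ormdl2, -0.067 to 0.34 for Ormdl3, -0.23 to 0.064 for Cerk, -0.30 to 0.014 for S1pr2, -0.15 to 0.039 for Smpd2 and -0.22 to 0.18 for Gla. The difference in share ranged from -1.43 to 3.86 percentage points for Ormdl3 and from -0.19 to 1.58 for Cers2. The cause was not tested.

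The replicate numbers were not taken as pairs in the main test. Same-numbered libraries deviated from their group means with correlations of 0.246, 0.00994 and 0.458, and whether the numbers mark pairs was not tested. With the number as a replicate block, 10 members were higher and 9 lower, 3 and 4 of them past 2-fold, and 8 and 8 genes of the wider list were called. The block added Sgpl1, Col4a3bp and Glb1 (edgeR adjusted p = 0.0497, 0.0286 and 0.0467). Low counts limit what can be said of Spns2, Acer2, Sgpp2, Sgms2, Smpd3 and Cers4, and for Sphk1 the counting annotation is a further limit that was not tested.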

Other observations

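Outside the members, B3galnt1, a glycolipid galactosaminyltransferase gene named here after its values were seen, had 10, 22 and 14 counts in DMSO, against 0, 1 and 1 in SKI-II (edgeR adjusted p = 0.00177). The cholesterol carriers of the lysosome, read in the wider list because they share cargo routes with sphingolipids, moved apart. Npc1 rose from 2892 ± 202 to 4945 ± 1381 normalized counts (SD, n = 3, log2 fold change 0.77, edgeR adjusted p = 0.00828), and Npc2 fell from 7346 ± 1724 to 4569.6 ± 657 (log2 fold change -0.68, edgeR adjusted p = 0.0142). Abcc1, a transporter known to carry S1P among other cargo, rose from 7610.4 ± 1261 to 12931 ± 1442 (log2 fold change 0.76, edgeR adjusted p = 0.00441). Npc1 shares 511 bases of exon with Rmc1 on the opposite strand.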
